A study of Mus musculus with 24 samples.

Results

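The small noncoding RNA genes *Rny1*, *Rny3*, *Rn7sk*, *Rmrp*, *Rpph1* and *Terc* were followed across a ribosomal RNA-depleted RNA-seq experiment in C2C12 myoblasts, a mouse muscle precursor line. They were taken by name as 6 of the 55291 gene symbols in the table of counts, and all 6 had counts in each of the 24 libraries. The cells carried a scrambled control shRNA (scr) or an shRNA against *Baf180* (*Pbrm1*), *Baf250a* (*Arid1a*) or *Brd9*, which encode subunits of 3 different forms of the SWI/SNF chromatin remodeling complex. Each of these 4 lines was grown for 48 h untreated (NT), with CuSO4 at 100 µM, or with ZnSO4 at 50 µM, which gives 12 conditions with 2 biological replicates each. All lines, scr included, were stable populations made with lentiviral shRNA vectors and selected with puromycin according to the methods of the study, so that a knockdown (KD) is a pool of cells with partial depletion and not a deletion. The sample labels instead name primary myoblasts and a lipid transfection, and for both points the description in the methods was used.

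All but *Terc* are made by RNA polymerase III from promoters that lie mostly upstream of the transcribed sequence. Y RNAs (*Rny1*, *Rny3*) form a stem that is bound by Ro60 and a 3′ tail of uridines that is bound by La (*Ssb*), and they are known for roles in RNA quality control and in the initiation of DNA replication. 7SK RNA (*Rn7sk*) holds the elongation kinase P-TEFb in an inactive particle together with HEXIM proteins, Larp7 and Mepce. *Rmrp* and *Rpph1* are the RNA components of RNase MRP, which cleaves precursor ribosomal RNA, and of RNase P, which trims the 5′ ends of precursor transfer RNAs. *Terc*, the RNA that provides the template of telomerase, is in mammals transcribed by RNA polymerase II and assembled by the dyskerin proteins that also bind H/ACA small nucleolar RNAs. None of the 6 carries a poly(A) tail of the usual kind, and depletion of ribosomal RNA in place of poly(A) selection is what lets them be counted.

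The 2 Y RNAs lie close together on chromosome 6 of GRCm38. *Rny1* occupies chr6:47788069-47788180 on the minus strand and *Rny3* chr6:47781624-47781725 on the plus strand, both as single exon genes between *Ezh2* and *Pdia4*. Their sequences, from the GENCODE M21 transcripts, are shown because the results turn on this pair and because shared stretches decide whether a read can be placed on one of them. Capitals mark the aligned runs of at least 6 identical bases.
Rny1: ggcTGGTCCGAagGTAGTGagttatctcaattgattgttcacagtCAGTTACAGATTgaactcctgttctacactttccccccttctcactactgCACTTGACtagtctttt
Rny3: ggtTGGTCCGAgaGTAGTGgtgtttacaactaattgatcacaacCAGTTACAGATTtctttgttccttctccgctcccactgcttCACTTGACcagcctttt
*Rny1* has 112 bases and *Rny3* has 102, and 81 of 112 aligned columns (72.3%) were identical. The longest shared run, CAGTTACAGATT, has 12 bases, so that a read pair covering most of either RNA distinguishes the 2 genes. Reads that also match copies of Y RNA elsewhere in the genome were not counted, because only uniquely mapped reads were kept by the authors.

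The other 4 genes are on 4 different chromosomes. *Rn7sk* is at chr9:78175303-78175633, 331 bases on the minus strand between *Ick* (listed as *Cilk1* in the counts) and *Gsta4*, and *Terc* is at chr3:96414437-96414859, 423 bases on the minus strand. *Rmrp*, at chr4:43492783-43493063, has 281 bases on the minus strand and overlaps *Ccdc107*, a protein-coding gene on the opposite strand. *Rpph1*, at chr14:50807449-50807767, has 319 bases on the minus strand, overlaps *Ccnb1ip1* on the same strand, and starts 73 bp from the divergent gene *Parp2*. The 5′ parts of 7SK RNA and telomerase RNA are shown because they hold the elements by which these RNAs work. In *Rn7sk*, capitals mark each GATC, a motif of the stem that binds HEXIM. In *Terc* they mark a stretch that includes sequence of the template for telomere repeats, without fixing the ends of the template.
Rn7sk: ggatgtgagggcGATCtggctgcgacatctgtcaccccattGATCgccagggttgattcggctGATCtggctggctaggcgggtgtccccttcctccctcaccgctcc
Terc: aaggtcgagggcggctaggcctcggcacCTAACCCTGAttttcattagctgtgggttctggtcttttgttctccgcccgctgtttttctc
The 3 GATC motifs of *Rn7sk* start at bases 13, 42 and 64 of the RNA, and no other GATC occurs in its 331 bases. The marked stretch of *Terc* covers bases 29 to 38. The 4 longer RNAs are rich in G and C, with 58.01% in *Rn7sk*, 63.7% in *Rmrp*, 67.08% in *Rpph1* and 67.14% in *Terc*, against 43.75% in *Rny1* and 45.1% in *Rny3*.

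Libraries held 495778 to 75179394 counts (median 22158430), and *Baf250a* KD with Zn replicate 2 was the shallowest of them. Each targeted gene was lower in its own untreated KD, by 0.76 (*Pbrm1*), 1.53 (*Arid1a*) and 0.76 (*Brd9*) on the log2 scale. All 6 myoblast markers were measured (CPM, library-scaled counts by edgeR's CPM with TMM factors), with a summed level of 2179 to 3197 CPM in scr and 1090 to 1867 CPM across the KD lines. *Des*, at 777 to 2519 CPM, made the largest part of this sum, and single markers differed in direction. Averaged over treatments, 3 passed edgeR's test as higher than in scr and 3 as lower in *Baf180* KD. In *Baf250a* KD and in *Brd9* KD, 1 was higher and 4 were lower. Summed over 4 fibroblast markers, of which *Thy1* was at 0 in 22 libraries, levels ran from 38.2 to 51.6 CPM in scr, from 61.4 to 84.6 CPM in *Brd9* KD, from 359 to 434 CPM in *Baf180* KD and from 2052 to 2663 CPM in *Baf250a* KD. Most of the fibroblast sum was *Col1a1*, and what part it plays in the differences between lines described for the 6 RNAs was not tested. Untreated scr replicate 2 stood apart in small nucleolar RNAs, and both untreated scr libraries in a row made of ribosomal RNA sequence (CT010467.1). Summed counts on small nucleolar RNA genes were 314 CPM in untreated scr replicate 1 and 626 CPM in replicate 2. The other 22 libraries held 145 to 366 CPM, a range that includes replicate 1. The ribosomal RNA row held 48156 and 17255 CPM in untreated scr against 833 to 11066 CPM. For the 6 RNAs, comparisons with untreated scr were therefore also made without each of its 2 libraries. The values are given where a call or size changed. For all other genes named below, this check of single libraries was not made.

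Per kilobase of RNA the 6 genes differed by over 3 orders of magnitude in mean level. *Rn7sk* had 20108 CPM per kb, *Rmrp* 8972, *Rpph1* 2972, *Rny1* 495, *Rny3* 452 and *Terc* 9.30. The abundant RNAs were the steady ones. The highest library was 1.66 times the lowest for *Rn7sk*, 2.35 times for *Rpph1* and 2.99 times for *Rmrp*, against 12.7 times for *Terc*, 26.2 times for *Rny1* and 33.9 times for *Rny3*. Without untreated scr replicate 2 and *Baf250a* KD with Zn replicate 2, the highest and the shallowest library, these ratios were 1.66, 2.35, 2.55, 8.001, 7.41 and 7.396 in the same order. The source of the variation differed as well. Of the variance in log2 CPM, 77.1% lay between cell lines for *Terc*, 55.9% for *Rpph1* and 53.4% for *Rn7sk*. For *Rny1* 56.3% and for *Rny3* 48.1% lay between treatments within a line, and for *Rmrp* the largest share, 40.1%, lay between replicates.

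The Y RNAs were highest in untreated scr cells and were low in scr cells given either metal. *Rny1* stood at 75.7 and 387 CPM in untreated scr (replicates 1 and 2), 35.1 and 27.5 CPM with Cu, and 27.3 and 30.8 CPM with Zn. *Rny3* stood at 81.1 and 372 CPM untreated, 33.3 and 25.4 CPM with Cu, and 26.5 and 28.9 CPM with Zn. Both untreated libraries were above all 4 metal-treated ones, but they differed from each other by 5.11 times for *Rny1* and 4.59 times for *Rny3*, more than any pair of replicates in another condition.

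In *Baf180* KD, Y RNAs were low with Cu and high with Zn. *Rny1* had 59.8 and 61.5 CPM untreated, 31.0 and 19.2 CPM with Cu, and 109.6 and 54.4 CPM with Zn. *Rny3* had 29.98 and 42.6 CPM untreated, 26.7 and 13.5 CPM with Cu, and 76.8 and 56.7 CPM with Zn. For *Rny3* the 3 treatments did not overlap, whereas for *Rny1* the Zn libraries lay on either side of the untreated ones.

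In *Baf250a* KD the replicates were farther apart than the treatments. *Rny1* had 16.0 and 32.5 CPM untreated, 23.4 and 74.9 CPM with Cu, and 23.6 and 71.9 CPM with Zn. *Rny3* had 12.2 and 33.0 CPM untreated, 13.6 and 52.4 CPM with Cu, and 20.1 and 50.6 CPM with Zn. All ranges overlapped. Replicate 2 was above replicate 1 in all 18 pairs formed by the 6 RNAs and the 3 treatments of this line, compared with 7 of 18 in *Baf180* KD, 10 of 18 in *Brd9* KD and 9 of 18 in scr.

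In *Brd9* KD, both Y RNAs were lower in each metal-treated library than in either untreated one. *Rny1* had 41.1 and 46.2 CPM untreated, 19.8 and 29.2 CPM with Cu, and 19.0 and 14.8 CPM with Zn. *Rny3* had 29.5 and 27.5 CPM untreated, 11.9 and 15.6 CPM with Cu, and 14.7 and 10.96 CPM with Zn. *Brd9* KD with Zn held the lowest values of all 24 libraries. When the 12 conditions were ordered by mean level, only 1 of 11 neighboring pairs for *Rny1* and 2 of 11 for *Rny3* had ranges that did not overlap.

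**Figure D1:**
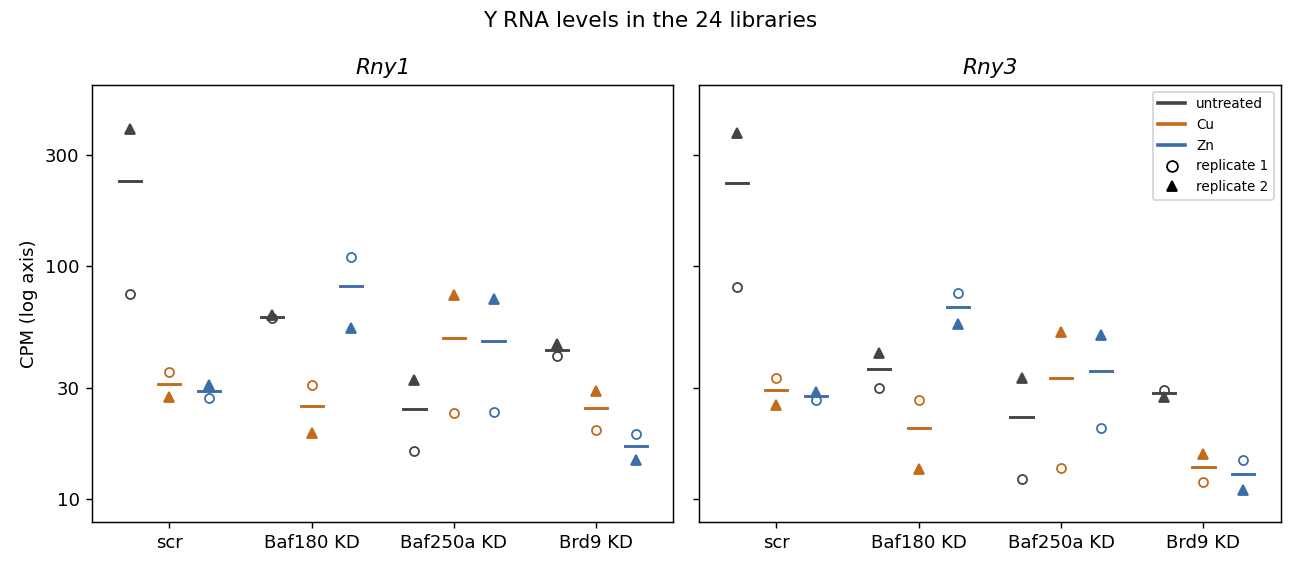
CPM of *Rny1* (left) and *Rny3* (right) on a log axis, by cell line and treatment. Open circles are replicate 1, filled triangles replicate 2 and bars the mean of the 2; untreated scr replicate 2 lies at 387 and 372 CPM, above every other library.

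Metal responses were tested in each line to ask whether Cu or Zn changed these RNAs, with edgeR's quasi-likelihood test and Benjamini-Hochberg adjustment over all genes tested. Values are log2 fold changes ± SE of metal-treated against untreated cells of the same line, from 2 libraries each. With Zn in scr, *Rny1* fell by 2.89 ± 0.62 (adjusted p = 0.0292) and *Rny3* fell by 2.93 ± 0.59 (adjusted p = 0.0280), which made 2 of the 6 RNAs called, against a background of 17.6% of all genes. As the levels are shares of all counts in bulk RNA, fewer molecules per cell and fewer cells that hold them cannot be told apart. Without untreated scr replicate 2 both calls were lost (log2 fold change -1.32 with adjusted p = 0.137 for *Rny1*, and -1.48 with adjusted p = 0.119 for *Rny3*). Both were also lost without either Zn library (adjusted p from 0.128 to 0.192) and with a correction for GC content and transcript length, which gave -2.63 and -2.49 (adjusted p = 0.0673 for each).

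The Cu response of scr had the same size, -2.87 for *Rny1* (adjusted p = 0.409) and -2.93 for *Rny3* (adjusted p = 0.394), but none of the 6 RNAs passed the test. Only 5 genes, 0.0333% of those tested, passed it in this comparison, while 1559 had an unadjusted p under 0.05, *Rny1* and *Rny3* among them. In a fit of all 24 libraries together, both passed (adjusted p = 0.0279), with log2 fold changes of -2.90 and -2.97, and both passed without untreated scr replicate 1 (-3.58 and -3.62). DESeq2 called none of the 6.

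With Cu in *Baf180* KD, *Rny1* fell by 1.31 ± 0.28 (adjusted p = 0.0188) and *Rmrp* rose by 0.66 ± 0.16 (adjusted p = 0.0257), 2 of 6 against a background of 13.8%. *Rny3* had a log2 fold change of -0.90 ± 0.28 (adjusted p = 0.0579). Neither call held in the fit of all 24 libraries (adjusted p = 0.131 and 0.0866), and the *Rny1* call was lost with the GC and length correction (-1.13, adjusted p = 0.0577). With Zn in *Baf180* KD, *Rny3* had a log2 fold change of 0.85 ± 0.27 (adjusted p = 0.317) and *Rny1* one of 0.40 ± 0.28 (adjusted p = 0.540). None of the 6 passed, in a comparison in which 3 genes (0.0197%) passed and 1999 had an unadjusted p under 0.05, *Rny3* among them. DESeq2 called none of the 6 either.

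With Cu in *Brd9* KD, *Rny3* fell by 1.10 ± 0.16 (adjusted p = 0.0303), and it was the only one of the 6 called, against a background of 0.274%, or 41 genes. *Rny1* had a log2 fold change of -0.88 ± 0.18 (adjusted p = 0.0906). In the fit of all 24 libraries the *Rny3* value was -1.05 with an adjusted p of 0.420, and it missed the threshold without any of the 4 libraries compared. With Zn in *Brd9* KD the values were -1.37 ± 0.19 for *Rny1* (adjusted p = 0.0894) and -1.15 ± 0.16 for *Rny3* (adjusted p = 0.107). None passed by edgeR, with 5 genes (0.0334%) called and 451 at an unadjusted p under 0.05, while DESeq2 called both Y RNAs.

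In *Baf250a* KD no member passed with either metal in a fit without a replicate term, in which the higher level of all 6 RNAs in replicate 2 of this line counts as error. With Cu, *Rny1* had a log2 fold change of 1.01 ± 0.32 (adjusted p = 0.164) and *Rny3* one of 0.53 ± 0.36 (adjusted p = 0.676), where 1.27% of all genes were called. When each library was left out in turn, the *Rny3* value ranged from -0.73 without Cu replicate 2 to 1.402 without untreated replicate 2. The *Rny1* value ranged from -0.05 without Cu replicate 2 to 1.61 without Cu replicate 1. With Zn the values were 0.20 ± 0.42 for *Rny1* (adjusted p = 0.799) and 0.01 ± 0.47 for *Rny3* (adjusted p = 0.994), against a background of 15.9%. Zn replicate 2 of this line held 495778 counts in all, 37 of *Rny1* and 26 of *Rny3*, and for *Rny1* the value was -0.03 without replicate 2 and 1.61 without replicate 1, neither past the test. DESeq2 gave 0.95 for *Rny1* and 0.62 for *Rny3*. The number of the 6 with an unadjusted p under 0.05 was 1 for each metal, and 1530 and 4263 of all genes were under it. DESeq2 called none in either.

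**Figure D2:**
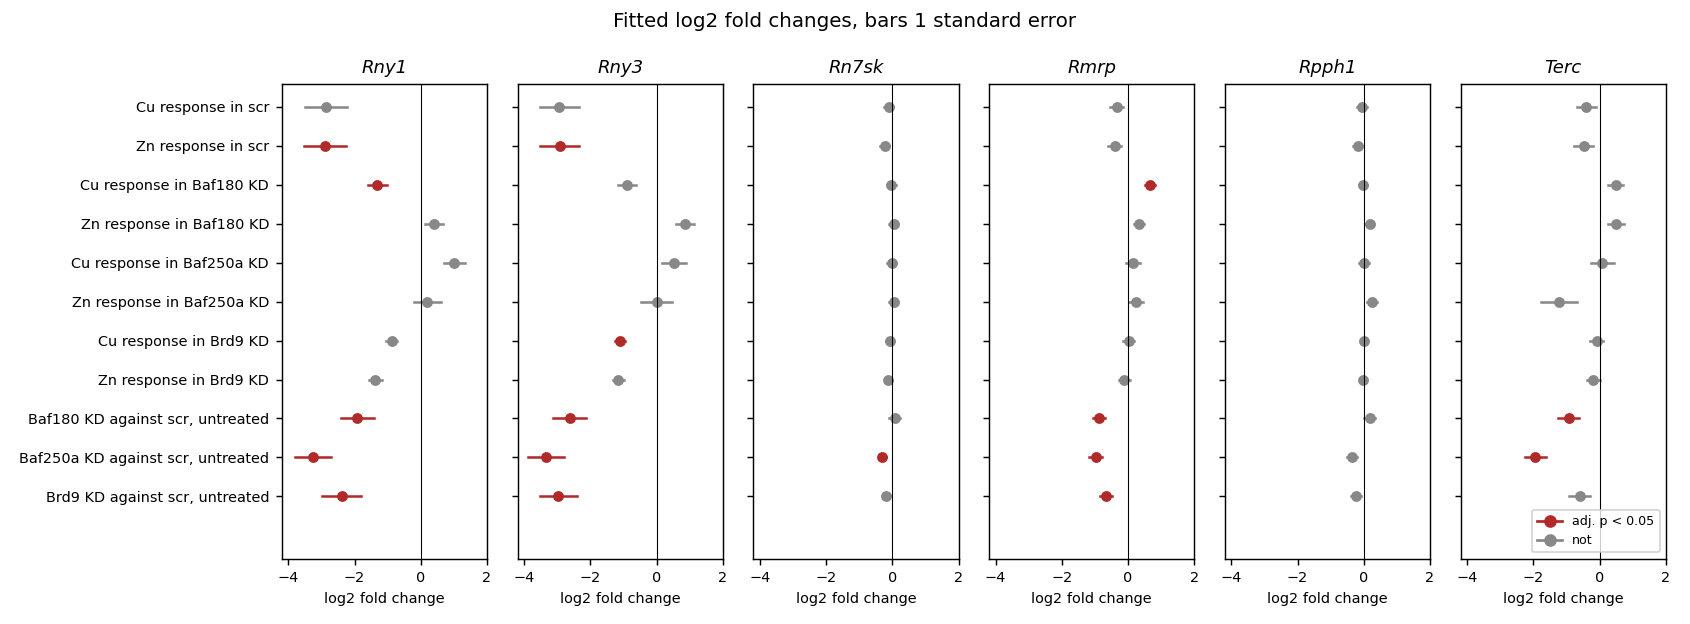
Log2 fold change (horizontal axis) of each RNA in the 8 metal responses and the 3 comparisons of untreated KD with untreated scr, with bars of 1 SE. Red points passed edgeR's test; the Y RNA points reach -3.34, whereas all *Rn7sk* and *Rpph1* points lie between -0.35 and 0.24.

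Untreated KD cells were compared with untreated scr cells to ask what loss of each subunit did without added metal. Both Y RNAs were lower in all 3 KD lines. In *Baf180* KD, *Rny1* fell by 1.92 ± 0.49 (adjusted p = 0.00906) and *Rny3* fell by 2.62 ± 0.49 (adjusted p = 0.00148). In *Baf250a* KD, *Rny1* fell by 3.26 ± 0.55 (adjusted p = 0.000241) and *Rny3* fell by 3.34 ± 0.56 (adjusted p = 0.000238). In *Brd9* KD, *Rny1* fell by 2.38 ± 0.59 (adjusted p = 0.0196) and *Rny3* fell by 2.97 ± 0.57 (adjusted p = 0.00784). These 3 comparisons share the untreated scr libraries, so they are not independent of each other. With *Rmrp* and, in some lines, *Terc* or *Rn7sk*, the members called lower numbered 4 of 6 in *Baf180* KD, 5 of 6 in *Baf250a* KD and 3 of 6 in *Brd9* KD, and no member rose. The background of genes called lower was 19.3%, 28.9% and 14.1%, and of genes called in either direction 41%, 57.8% and 29.2%.

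The size of these differences depended on 1 library, and some calls on others. Without untreated scr replicate 2, *Rny1* differed from scr by -0.31 in *Baf180* KD, -1.67 in *Baf250a* KD and -0.79 in *Brd9* KD, and *Rny3* by -1.14, -1.88 and -1.50. Without replicate 1 instead, *Rny1* differed by -2.67, -4.02 and -3.13 and *Rny3* by -3.35, -4.07 and -3.69. These values still passed edgeR's test, with 1 scr library taken to vary as the other condition did. Leaving out either KD library instead kept the *Rny3* calls in all 3 lines and the *Rny1* call in *Baf250a* KD, but lost the *Rny1* call in *Baf180* KD (adjusted p = 0.0692 without replicate 1 and 0.0698 without replicate 2) and in *Brd9* KD (adjusted p = 0.0789 and 0.0759). The DESeq2 fit kept the *Rny3* calls in all 3 lines and lost the *Rny1* calls in *Baf180* KD (adjusted p = 0.154) and *Brd9* KD (adjusted p = 0.0750).

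**Figure D3:**
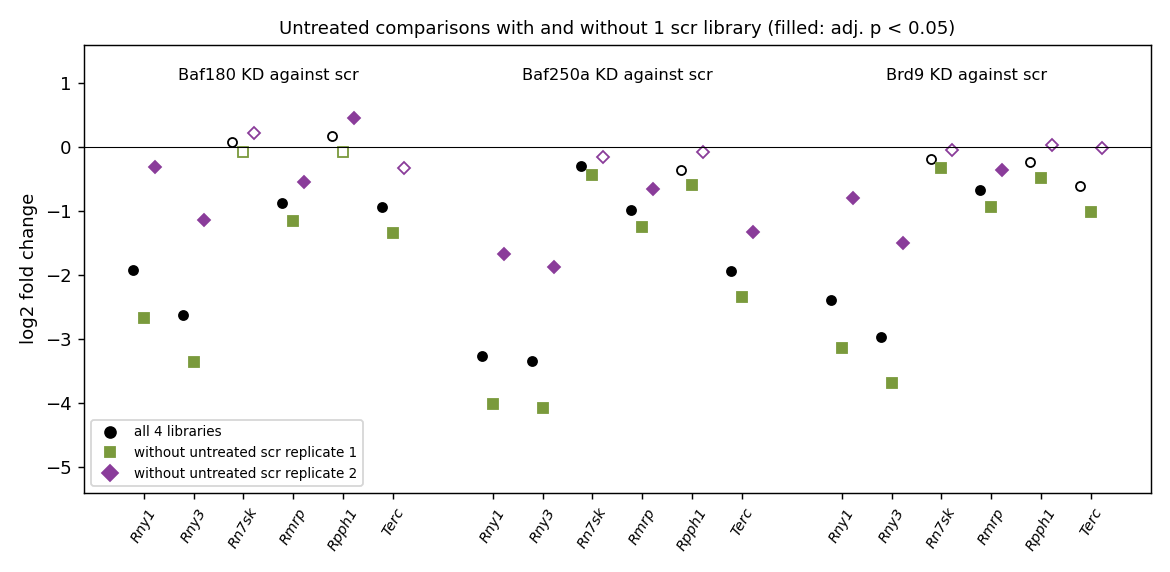
Log2 fold change of the 6 RNAs in untreated KD against untreated scr with all 4 libraries (circles), without untreated scr replicate 1 (squares) and without replicate 2 (diamonds). Filled symbols passed edgeR's test; for *Rny1* in *Baf180* KD the 3 values are -1.92, -2.67 and -0.31.

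Averaged over the 3 treatments, with 6 libraries on each side, the Y RNAs were lower than in scr in 2 lines. The background of genes called in either direction in these comparisons was 49.5% in *Baf180* KD, 59.9% in *Baf250a* KD and 37.7% in *Brd9* KD. In *Brd9* KD, *Rny1* fell by 1.17 ± 0.33 (adjusted p = 0.00689) and *Rny3* fell by 1.72 ± 0.34 (adjusted p = 0.000344). With them, 3 of 6 members were called lower in this line, against a background of 17.3%. In *Baf250a* KD, *Rny1* fell by 0.86 ± 0.35 (adjusted p = 0.0398) and *Rny3* fell by 1.14 ± 0.36 (adjusted p = 0.00921). With them, 4 of 6 members were called lower in this line, against a background of 31%. Without untreated scr replicate 2, *Rny3* in *Brd9* KD still passed (-1.23), while *Rny1* there (-0.63, adjusted p = 0.0699) and both in *Baf250a* KD (-0.33 and -0.65, adjusted p = 0.337 and 0.0716) did not. Over all 12 libraries left out in turn, the *Baf250a* KD call of *Rny1* held in 5 and that of *Rny3* in 10, and the *Brd9* KD calls in 11 and 12. In *Baf180* KD the values were -0.25 ± 0.31 (adjusted p = 0.533) and -0.64 ± 0.32 (adjusted p = 0.103). When only the Cu and Zn libraries were averaged, *Rny1* in *Baf250a* KD turned to 0.32 (adjusted p = 0.470) and *Rny3* was at -0.06 (adjusted p = 0.910), and in *Brd9* KD the *Rny1* call was lost (-0.58, adjusted p = 0.189).

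For some of the 6 RNAs the response to Zn differed between *Baf180* or *Baf250a* KD and scr. In *Baf180* KD minus scr, the difference between the 2 Zn responses was 3.42 ± 0.77 on the log2 scale for *Rny1* (adjusted p = 0.00337), 3.90 ± 0.79 for *Rny3* (adjusted p = 0.00184) and 1.10 ± 0.38 for *Terc* (adjusted p = 0.0357), 3 of 6 against a background of 28.7%. In *Baf250a* KD minus scr it was 3.29 ± 0.88 for *Rny1* (adjusted p = 0.00793) and 3.10 ± 0.90 for *Rny3* (adjusted p = 0.0128). These were 2 of 6, near the background of 30.5%, and Zn replicate 2 of that line held only 495778 counts. Without untreated scr replicate 2 only *Rny3* in *Baf180* KD still passed (2.41, adjusted p = 0.0290), with 1.79 for *Rny1* (adjusted p = 0.0706) and 0.48 for *Terc* (adjusted p = 0.440), and the *Baf250a* values were 1.66 and 1.5998 (adjusted p = 0.120 and 0.162). In *Brd9* KD minus scr no member passed for Zn, with 1.64 ± 0.80 for *Rny1* (adjusted p = 0.172) and 11.1% of all genes called, and 1 member and 4953 genes had an unadjusted p under 0.05. For Cu no member passed by edgeR in any line, against 12.8% of genes called in *Baf180* KD, 0.0121% in *Baf250a* KD and 0.0363% in *Brd9* KD. The unadjusted p was under 0.05 for 4, 2 and 2 of the 6 in these lines, and for 4876, 1274 and 2759 of all genes. DESeq2 called none of the 6 in these 4 comparisons.

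The 2 Y RNAs followed each other closely but not exactly. Over the 12 condition means, the gene whose centered log2 CPM was nearest to that of *Rny1* among 14728 genes was *Rny3*, with a root mean square difference of 0.27, and the same held in reverse. The next for both were *Rnu11*, the U11 RNA of the minor spliceosome (0.39 from *Rny1* and 0.48 from *Rny3*), and *Rps15a-ps8*, a pseudogene of a ribosomal protein gene (0.51 and 0.55). For every 100 counts on *Rny1* there were 92.4 to 107 counts on *Rny3* in the 6 scr libraries (median 95.5), 53.5 to 77.4 in *Brd9* KD (median 65.8), 50.1 to 104 in *Baf180* KD (median 70.2) and 58.0 to 102 in *Baf250a* KD (median 73.2). The scr and *Brd9* KD ranges did not overlap, untreated scr replicate 2 included. This ratio was formed after the values had been seen, and it was not tested.

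Other short RNAs moved with the Y RNAs in the untreated libraries. *Vaultrc5*, a vault RNA also made by RNA polymerase III, stood at 24.2 and 100.4 CPM in untreated scr and at 4.81 to 23.9 CPM in the other 22 libraries, and *Rnu12*, the U12 RNA, at 4.397 and 15.6 CPM against 0.43 to 3.89 CPM. In untreated KD cells *Vaultrc5* was lower than in scr in all 3 lines (log2 fold change -1.97, -2.23 and -1.66 in *Baf180*, *Baf250a* and *Brd9* KD), and so was *Rnu12* (-2.24, -3.26 and -1.85). Untreated *Brd9* KD held 23.9 and 15.2 CPM of *Vaultrc5*, beside 24.2 CPM in untreated scr replicate 1. How far the values of these other RNAs rest on untreated scr replicate 2 was not tested. Of the small nucleolar RNAs tested, 21 of 34 were lower in *Baf180* KD, 24 of 35 in *Baf250a* KD and 8 of 33 in *Brd9* KD, none was higher in these comparisons, and the medians were -1.17, -1.44 and -0.84 against 0.03, 0.00 and 0.01 over all genes, of which 19.3%, 28.9% and 14.1% were called lower. *Snord13* was lower in each line (-3.58, -4.18 and -3.23), as was *Snord118* (-2.44, -2.99 and -2.29).

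Annotated small noncoding RNA genes, small nucleolar RNAs included, had negative medians in these comparisons. Among those no longer than *Rny1* (112 bases), other than the members, 7 of 27 were lower and 0 higher in *Baf180* KD (median -0.56), 12 of 30 lower and 2 higher in *Baf250a* KD (median -0.72), and 4 of 28 lower and 1 higher in *Brd9* KD (median -0.44). The background of genes called lower was 19.3%, 28.9% and 14.1%. Among longer ones of up to 200 bases, 35 of 67, 44 of 64 and 13 of 64 were lower and the medians were -1.19, -1.70 and -0.85. Among those of over 200 and up to 500 bases, 13 of 33, 13 of 32 and 9 of 26 were lower. In this class 2, 2 and 1 were higher, and the medians were -0.71, -0.76 and -0.65. *Rn7sk*, *Rmrp*, *Rpph1* and *Terc* have lengths in this range. These length classes were formed after the data had been seen. How much of the difference in Y RNAs or in *Rmrp* comes with the lower level of other small noncoding RNAs was not tested. With a correction for GC content and length the Y RNAs still passed in all 3 untreated comparisons, at -1.27, -2.25 and -1.79 for *Rny1* and -1.87, -2.20 and -2.23 for *Rny3*.

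The same RNAs were examined in the metal responses. With Cu in *Baf180* KD, where *Rny1* fell, *Rnu11* fell by 1.14 and *Bc1*, a rodent-specific RNA polymerase III transcript of neurons, fell by 0.74, whereas no small nucleolar RNA fell and 3 of 37 rose against 13.8% of all genes called, *Snora73b* by 1.10 and *Scarna6* by 1.06 among them. With Zn in scr, which shares the untreated scr libraries, 17.6% of all genes were called. Of the small nucleolar RNAs there, 7 of 40 fell and none rose (median -0.78), *Snord118* by 1.91 among them. *Rnu12* fell by 1.99 and *Rn7s2*, a 7SL RNA of the signal recognition particle, by 1.01.

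**Figure D4:**
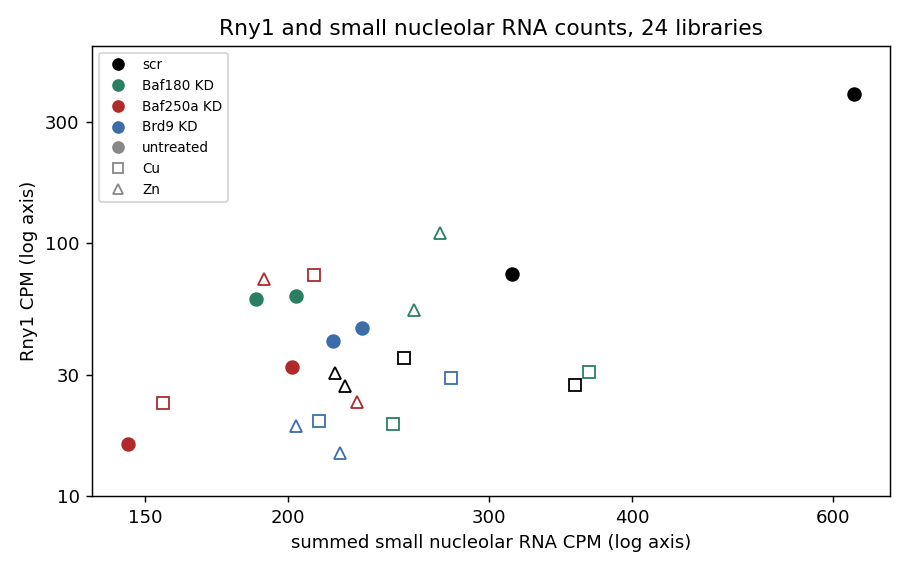
*Rny1* CPM against the summed CPM of small nucleolar RNA genes in the 24 libraries, both on log axes; color gives the cell line, and filled circles are untreated, open squares Cu and open triangles Zn. Untreated scr replicate 2 lies alone at 626 and 387 CPM, while the other 23 libraries spread over 145 to 366 CPM on the horizontal axis with *Rny1* between 14.8 and 109.6 CPM.

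Among the mRNAs of proteins that bind Y RNAs, *Ssb* and *Ro60* were higher in several comparisons in which Y RNAs were lower, and other genes of the list were not. *Ssb* (La) rose by 1.81 and *Ro60* by 1.36 with Zn in scr, in a list of 8 measured Y RNA and RNA polymerase III transcript binding proteins in which 2 rose and 1, *Puf60*, fell. *Ro60* stood at 35.4 and 48.5 CPM in the 2 untreated scr libraries and at 100.9 and 101.4 CPM in the Zn libraries. In untreated KD cells, *Ssb* was higher than in scr by 0.86, 0.67 and 1.28 and *Ro60* by 0.81, 0.60 and 0.80 in *Baf180*, *Baf250a* and *Brd9* KD. *Ybx3* was lower in all 3 lines (-0.37, -1.19 and -0.33) and *Ybx1* in *Baf180* KD and *Baf250a* KD (-0.45 and -0.94). Of the 8 genes, 2 were higher and 2 lower in *Baf180* KD, 2 higher and 5 lower in *Baf250a* KD, and 2 higher and 1 lower in *Brd9* KD, where 41%, 57.8% and 29.2% of all genes were called. With Zn in *Baf250a* KD, where the Y RNAs did not pass, *Ro60* fell by 0.87 and *Ssb* by 0.44. In the same comparison 4 of the 8 rose, *Ybx1* by 0.62, *Ybx3* by 0.59 and *Puf60* by 0.40 among them. Zn replicate 2 of that line held only 495778 counts. With Cu in *Baf180* KD *Ssb* fell by 0.91 together with *Rny1*. The median log2 fold change of the list was -0.03 with Zn in scr, and -0.08, -0.36 and -0.02 in the 3 untreated comparisons, near that of all genes except in *Baf250a* KD.

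*Rn7sk*, the most abundant of the 6 per kilobase, varied least. It stood at 6639.6 and 8111 CPM in untreated scr, 7401 and 6160.4 CPM with Cu and 6117 and 5703 CPM with Zn. In *Baf180* KD it stood at 6920.0 and 8409 CPM untreated, 7828 and 7504 CPM with Cu and 8190.1 and 7839.7 CPM with Zn, and in *Baf250a* KD at 5817 and 6141 CPM, 5059 and 6724 CPM, and 5097 and 6897 CPM. In *Brd9* KD the values were 5895 and 6846 CPM untreated, 6102 and 6551 CPM with Cu and 6152 and 5633 CPM with Zn. Replicates differed by up to 1.35 times, about as much as conditions did.

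No metal response of *Rn7sk* passed in any line, with log2 fold changes between -0.23 and 0.04. DESeq2 called none either. Untreated, it was lower in *Baf250a* KD by 0.30 ± 0.11 (adjusted p = 0.0379), but this call was lost without untreated scr replicate 2 (-0.16, adjusted p = 0.169) and without *Baf250a* KD replicate 1 (-0.28, adjusted p = 0.108), and with the GC and length correction the direction turned and the value passed the test as higher (0.34, adjusted p = 0.00164). Averaged over treatments it was higher in *Baf180* KD by 0.22 ± 0.09 (adjusted p = 0.0466). There 2 of 6 members were called higher, near the background of 26.5%. The *Rn7sk* call was lost with DESeq2 (0.20, adjusted p = 0.0695) and with RLE size factors (0.20, adjusted p = 0.0719). It held in 3 of the 12 fits that left out 1 library. In untreated *Brd9* KD *Rn7sk* had -0.19 (adjusted p = 0.316), and -0.33 without untreated scr replicate 1, a value that passed.

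Of the 7 genes of the 7SK particle and P-TEFb, 2 were higher and 1 lower in untreated *Baf180* KD. In untreated *Baf250a* KD 2 were higher and 3 lower, and in *Brd9* KD 1 was higher and 0 lower. Of all genes, 41%, 57.8% and 29.2% were called in these 3 comparisons. *Hexim1* was higher in untreated *Baf180* KD (0.38) and *Baf250a* KD (0.61), and averaged over treatments it was higher by 0.42 and 0.81. *Larp7*, which binds the 3′ end of 7SK, and *Mepce*, which caps its 5′ end, were lower in untreated *Baf250a* KD (-0.63 and -0.49). *Ccnt2*, a cyclin of P-TEFb, was higher in all 3 untreated KD lines (0.57, 0.80 and 0.64) and rose with Zn in scr (0.70). In *Baf250a* KD with Zn, where replicate 2 held only 495778 counts, *Larp7* rose by 0.49 and *Ccnt2* fell by 0.53. Of the genes on either side of *Rn7sk*, *Cilk1* passed in none of the 8 metal responses and none of the 3 untreated comparisons. *Gsta4*, a glutathione transferase gene 7140 bp away, rose with Cu by 0.88 in *Baf180* KD, 1.36 in *Baf250a* KD and 1.17 in *Brd9* KD, where *Rn7sk* had log2 fold changes of -0.04, -0.02 and -0.07. With Cu in scr *Gsta4* had 0.97 ± 0.12, which did not pass edgeR's test (adjusted p = 0.118), and *Rn7sk* had -0.10.

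The 2 ribonuclease RNAs differed from each other. *Rmrp* stood at 2967 and 4505 CPM in untreated scr, 2605 and 3191 CPM with Cu and 2776 and 2526 CPM with Zn. In *Baf180* KD it stood at 1906 and 2142 CPM untreated, 3837 and 2710.1 CPM with Cu and 2564 and 2575 CPM with Zn. In *Baf250a* KD the values were 1506 and 2285 CPM, 1608 and 2565 CPM, and 1607 and 2829 CPM, and in *Brd9* KD 2399.6 and 2238 CPM, 1952 and 2903 CPM, and 2145 and 2166 CPM. Untreated scr libraries were above all 6 untreated KD libraries, and in *Baf180* KD all 4 metal-treated libraries were above both untreated ones.

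Untreated, *Rmrp* was lower by 0.87 ± 0.18 in *Baf180* KD (adjusted p = 0.00272), by 0.98 ± 0.20 in *Baf250a* KD (adjusted p = 0.000939) and by 0.67 ± 0.17 in *Brd9* KD (adjusted p = 0.0222). These 3 calls held without either untreated scr library, with values of -0.54, -0.66 and -0.35 without replicate 2. Without a KD library the *Brd9* KD call was lost (adjusted p = 0.0552 without replicate 1 and 0.0869 without replicate 2), and the calls in the other lines held. When GC content and length were corrected for, the values were -0.34 (adjusted p = 0.0314), -0.11 (adjusted p = 0.505) and -0.0047 (adjusted p = 0.973). Averaged over treatments it was lower in *Baf250a* KD by 0.58 ± 0.15 (adjusted p = 0.00257) and in *Brd9* KD by 0.41 ± 0.15 (adjusted p = 0.0361), and neither call held with the correction (-0.0031 and -0.27). The *Baf250a* KD call held in all 12 fits that left out 1 library and the *Brd9* KD call in 4 of 12, with -0.30 (adjusted p = 0.143) without untreated scr replicate 2. *Ccdc107*, which overlaps *Rmrp* on the opposite strand, was also lower in all 3 untreated lines (-0.64, -1.02 and -0.65), although reads were assigned by strand. Its response to Cu in *Baf180* KD was 0.32 (adjusted p = 0.0888) beside the rise of *Rmrp*.

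*Rpph1* stood at 822 and 1187 CPM in untreated scr, 1015 and 888 CPM with Cu and 885 and 793 CPM with Zn. In *Baf180* KD it stood at 1053 and 1192 CPM untreated, 1187 and 1072 CPM with Cu and 1404 and 1167 CPM with Zn. In *Baf250a* KD the values were 724 and 848 CPM, 598 and 989 CPM, and 869 and 974 CPM, and in *Brd9* KD 810.4 and 867 CPM, 805 and 939 CPM, and 884 and 779 CPM. All 6 *Baf180* KD libraries were above 5 of the 6 scr libraries. No metal response and no untreated comparison passed for *Rpph1*, with log2 fold changes from -0.35 to 0.24. Leaving out an untreated scr library made calls in opposite directions, as higher in *Baf180* KD without replicate 2 (0.46) and as lower in *Baf250a* KD and *Brd9* KD without replicate 1 (-0.60 and -0.48).

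Averaged over treatments *Rpph1* was higher in *Baf180* KD by 0.34 ± 0.11 (adjusted p = 0.0107), the other member called higher in that line, and the call held when each of the 12 libraries was left out in turn (0.26 to 0.44). With the GC and length correction *Rpph1* passed as higher in all 3 untreated comparisons (0.69, 0.55 and 0.51), of which the last 2 had been negative without it (-0.35 and -0.24). *Ccnb1ip1*, which shares the strand of *Rpph1* and overlaps it by gene span, was lower in *Baf250a* KD (log2 fold change -2.31) untreated, where *Rpph1* had -0.35. How reads in the overlap were assigned between the 2 genes was not examined. The divergent neighbor *Parp2* was higher in untreated *Baf180* KD by 0.48.

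Of 12 tested genes for the proteins of RNase P and RNase MRP, 7 were lower and 0 higher in untreated *Baf250a* KD (median -0.46), where 28.9% of all genes were called lower. Averaged over treatments 8 were lower and 1 higher in that line (median -0.37), where 31% of all genes were called lower. *Pop5* was lower in all 3 untreated lines (-1.22, -1.31 and -1.13), as was *Rpp25l* (-0.82, -1.02 and -0.51). *Pop1*, the scaffold protein of both enzymes, was higher in *Brd9* KD untreated (0.51), and averaged over treatments it was higher in *Baf180* KD (0.57) and *Brd9* KD (0.66). With Cu in *Baf180* KD *Pop5* rose by 0.60 as *Rmrp* rose, the only gene of the 12 that passed there.

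*Terc* was lowest in *Baf250a* KD under every treatment. It stood at 1.47 and 2.07 CPM untreated, 1.42 and 2.36 CPM with Cu and 0.70 and 1.94 CPM with Zn in that line, from 38, 44, 31, 39, 10 and 1 counts. In scr it stood at 4.397 and 8.87 CPM untreated, 5.57 and 4.56 CPM with Cu and 4.67 and 4.38 CPM with Zn, from 69 to 345 counts. The 6 *Baf250a* KD libraries lay below all 18 others. The value of Zn replicate 2 rests on 1 count, which allows 0.05 to 10.8 CPM (exact Poisson interval, 95%, counting error only).

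Untreated, *Terc* was lower in *Baf250a* KD by 1.94 ± 0.33 (adjusted p = 0.000268), and averaged over treatments by 1.98 ± 0.21 (adjusted p = 4.93e-08). The latter passed without each of the 12 libraries in turn (-2.12 to -1.53), with the GC and length correction (-1.62) and with Cu and Zn libraries alone (-2.03). In untreated *Baf180* KD, at 2.96 and 3.99 CPM, it was lower by 0.93 ± 0.32 (adjusted p = 0.0345), which was lost without untreated scr replicate 2 (-0.32, adjusted p = 0.504), without either *Baf180* KD library (adjusted p = 0.174 and 0.0602) and with the correction (-0.50, adjusted p = 0.177). In *Brd9* KD it stood at 3.68 to 4.59 CPM and did not pass in either comparison (-0.61 untreated with adjusted p = 0.178, and -0.36 averaged with adjusted p = 0.0794), although the untreated difference passed without untreated scr replicate 1 (-1.01). No metal response passed for *Terc*. The largest, -1.22 ± 0.55 with Zn in *Baf250a* KD (adjusted p = 0.136), rested on the libraries with 10 counts and 1 count.

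**Figure D5:**
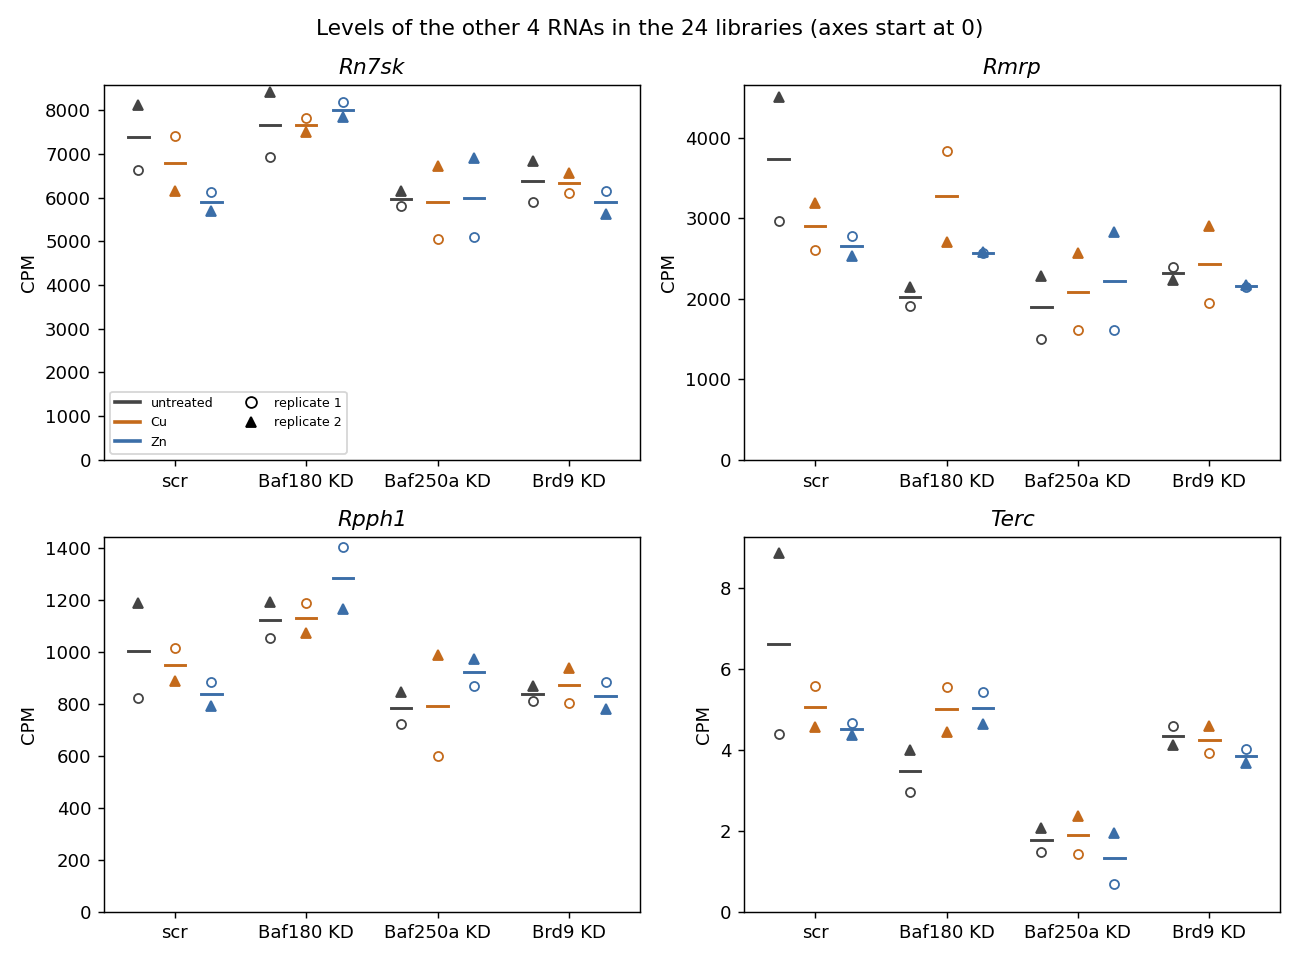
CPM of *Rn7sk*, *Rmrp*, *Rpph1* and *Terc* by cell line and treatment, with vertical axes from 0. Open circles are replicate 1, filled triangles replicate 2 and bars the mean; all 6 *Baf250a* KD libraries lie at 0.70 to 2.36 CPM for *Terc*, below every other library.

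Of 9 genes of the telomerase list, 7 were lower and 2 higher in untreated *Baf250a* KD, where 28.9% of all genes were called lower and 57.8% in either direction. *Nhp2* was lower by 1.12, *Shq1* by 0.91, *Gar1* by 0.82 and *Dkc1* (dyskerin) by 0.63, all of which encode proteins of the dyskerin complex or its assembly factor. *Tert*, the reverse transcriptase, was higher by 1.01 and *Naf1* by 0.36. Averaged over treatments, where 31% of all genes were called lower, the counts were again 7 lower and 2 higher, with *Dkc1* at -0.61 and *Tert* at 0.61. *Tert* stood at 4.41 and 5.56 CPM in untreated *Baf250a* KD against 2.23 and 2.74 CPM in untreated scr. In *Baf180* KD the untreated counts were 3 lower, *Shq1* (-0.67) and *Wrap53* (-0.58) among them, and 1 higher, and in *Brd9* KD 1 lower (*Shq1*, -0.63) and 1 higher (*Dkc1*, 0.44), where 41% and 29.2% of all genes were called. Genes with a pattern most like that of *Terc* over the 12 conditions were *Grasp*, *Gm8203* and *Camkk1*, at root mean square differences of 0.17, 0.19 and 0.20 log2 CPM, against 0.70 for the spread of *Terc* itself.

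RNA polymerase III, which makes all of these RNAs but *Terc*, was examined through its own genes. Among 18 measured subunits of RNA polymerase III, 8 were lower and 1 higher in untreated *Baf180* KD (median -0.30), 10 lower and 1 higher in *Baf250a* KD (median -0.54), and 4 lower and 1 higher in *Brd9* KD (median -0.25), where 19.3%, 28.9% and 14.1% of all genes were called lower. *Polr2f*, a subunit shared by the 3 nuclear polymerases, was lower in all 3 lines (-0.61, -1.41 and -0.85). *Polr3g*, the variant subunit of proliferating and undifferentiated cells, was higher in *Baf180* KD (0.51) and *Brd9* KD (0.74). With Zn in scr, 6 of 18 fell and 2 rose against 17.6% of all genes called, with *Polr2f* at -0.69, *Polr1c* at -0.68, *Polr3g* at 0.66 and *Polr3f* at 0.55. With Zn in *Baf250a* KD, 6 rose and 0 fell against 15.9% of all genes called, with *Polr2f* at 0.79 and *Polr1c* at 0.76. Zn replicate 2 of that line held only 495778 counts.

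Initiation factors and regulators did not move one way. Of 19 measured, 5 were higher and 5 lower in untreated *Baf180* KD, 5 higher and 7 lower in *Baf250a* KD, and 2 higher and 1 lower in *Brd9* KD, where 41%, 57.8% and 29.2% of all genes were called. *Snapc5*, part of the complex that binds the upstream promoters of *Rn7sk*, *Rmrp* and *Rpph1*, was higher in untreated *Baf180* KD (1.12) and *Baf250a* KD (1.26). With Cu in *Baf180* KD, *Snapc5* fell by 1.22 and *Bdp1*, a component of TFIIIB, fell by 0.82, while *Maf1*, the repressor of RNA polymerase III, rose by 0.32. *Maf1* was lower in untreated *Brd9* KD (-0.62). With Zn in scr 4 rose and 0 fell against 17.6% of all genes called, among them *Snapc3* (0.92) and *Gtf3c3* (0.61), in the comparison in which both Y RNAs fell.

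The remaining members had close counterparts among unrelated genes. The genes nearest to *Rn7sk* over the 12 conditions were *Rgmb*, *Tab1* and *Hdhd2* (root mean square differences of 0.04, 0.07 and 0.08 log2 CPM), those nearest to *Rmrp* were *Abhd17a*, *Atp5a1* and *Dhrs7b* (0.09, 0.09 and 0.10), and those nearest to *Rpph1* were *Arap1*, *Tpt1* and *Tmem107* (0.08 each). The members' own root mean square spread was 0.17, 0.28 and 0.22. None of the 6 was among the 3 genes nearest to another except the 2 Y RNAs.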

How the data were processed

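RNA was TRIzol-extracted, depleted of ribosomal RNA and made into strand-specific paired-end libraries by the authors, who mapped reads to mm10 with STAR, kept uniquely mapped reads and assigned them to genes by strand with featureCounts. Versions and the annotation are not given in the sources used here. The deposited table of counts per gene was used as it stands. Tables of the authors' own comparisons (log2 fold changes, standard errors and p-values) were deposited too and were not used. Groups came from the sample titles, since another label contradicted them.

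Counts were scaled by TMM, filtered with filterByExpr and tested with edgeR 4.0.16 (R 4.3.3, quasi-likelihood test, adjusted p under 0.05 over all genes tested). Metal responses used the 6 libraries of a line, untreated comparisons 4 libraries, and means over treatments and differences between responses all 24. CPM are edgeR's library-scaled counts with TMM factors, with a prior count of 2 for log2 values. DESeq2 1.42.0 and limma 3.58.1 served the alternatives, including RLE size factors, no filter on low counts, a correction for GC content and length with splines of 5 degrees of freedom, a replicate block, and leaving out each library. Scripts were tested on simulated data. The study describes replicates as biological, and with 2 per condition an exact permutation test cannot reach the threshold.

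The members and lists were chosen with earlier results of these data known. Named genes are the members, up to 2 list genes per direction with the largest change past the threshold, neighboring genes, the 3 genes most like each member and the targeted genes. Other list genes were named after their values were seen, to set them beside those. Loci and sequences came from GENCODE M21 on GRCm38.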

Additional observations from a re-analysis of the deposited data

Results flagged for a closer look

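The responses to Zn differed between a KD line and scr by a test of the difference itself (edgeR's quasi-likelihood test on all 24 libraries) for 5 values. In *Baf180* KD minus scr the difference was 3.42 for *Rny1*, 3.90 for *Rny3* and 1.10 for *Terc* on the log2 scale. In *Baf250a* KD minus scr it was 3.29 for *Rny1* and 3.10 for *Rny3*. Without untreated scr replicate 2 only *Rny3* in *Baf180* KD still passed (2.41). No group had enough samples to look for an outlying one.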

How the results depend on the processing

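Of 31 member values past the threshold, 312 of 418 alternative values kept their direction and call, 104 lost the call and 2 turned. Of 89 not past it, 892 of 1100 stayed, 114 had the opposite sign without a call, 90 gained a call and 4 turned with one. With the GC and length correction, *Rn7sk* (0.34) and *Rpph1* (0.55) in untreated *Baf250a* KD, *Rpph1* in untreated *Brd9* KD (0.51) and *Rpph1* in *Baf250a* KD averaged over treatments (0.39) turned positive, while the median of all genes moved by -0.15 to 0.05. *Rny3* with Cu in *Baf250a* KD ranged from -0.73 (without Cu replicate 2 of that line) to 1.402 when a library was left out, and *Rny1* in *Baf250a* KD turned to 0.32 with Cu and Zn alone, an average added after seeing the data. The causes were not tested.

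Numbers of members called moved as follows. With DESeq2, 2 were called for Cu and 2 for Zn in *Brd9* KD, 2 in untreated *Baf180* KD, and 1 in *Baf180* KD and 2 in *Baf250a* KD averaged over treatments. The GC and length correction left 0 for Zn in scr, 1 for Cu in *Baf180* KD, and 1 in *Baf180* KD and 2 in *Baf250a* KD averaged. RLE size factors left 1 in *Baf180* KD averaged. The fit of all 24 libraries gave 2 for Cu in scr, 0 for Cu in *Baf180* KD and 0 for Cu in *Brd9* KD. With only the libraries of both lines compared, 1 was called in *Baf180* KD averaged and 1 in its Cu difference from scr. With Cu and Zn alone, 1 was called in each line. Without a filter on low counts, 3 were called for Cu in scr, 3 for Zn in *Baf180* KD, 2 for Cu in *Baf250a* KD and 2 for either metal in *Brd9* KD, 5 each in the averaged *Baf180* and *Brd9* comparisons, and, as differences from scr, 3 (Cu) and 5 (Zn) in *Baf180* KD, 3 and 4 in *Baf250a* KD, and 3 and 2 in *Brd9* KD.

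Deviations of same-numbered replicates over all genes correlated at -0.26 to 0.32, positive in some comparisons and negative in others, and nothing in the labels ties the numbers to a shared batch, so the numbers were not taken to pair the samples. With the replicate block, 0 were called for Zn in scr, 2 for Cu and 2 for Zn in *Baf250a* KD (*Rny1* 0.90 and *Rny3* 0.45 with Cu, 0.81 and 0.80 with Zn, all higher), 0 for Cu in *Brd9* KD and 1 for the Cu difference of *Baf180* KD from scr, and no other number moved by over 1.5 times. Crossed pairing, added after seeing the data, gave 5 in untreated *Baf180* KD and 6 in untreated *Brd9* KD.

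When each library was left out in turn, with a lone sample of a condition assumed to vary like the others, members called ranged from 0 to 2 for Cu in scr, 0 to 3 for Zn in scr, 0 to 2 for Cu in the *Baf180* and *Baf250a* lines, and 0 to 0 for Zn there and for either metal in *Brd9* KD. They ranged from 2 to 4, 4 to 6 and 1 to 6 in untreated *Baf180*, *Baf250a* and *Brd9* KD, and from 1 to 3, 2 to 6 and 1 to 4 averaged over treatments. As differences from scr they ranged from 0 to 4 (Cu) and 1 to 5 (Zn) in *Baf180* KD, 0 to 2 and 0 to 3 in *Baf250a* KD, and 0 to 1 and 0 to 2 in *Brd9* KD. Depth limits *Terc* most, with 1 to 345 counts per library.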

Other observations

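In *Baf250a* KD the ratio of replicate 2 to replicate 1 over the 3 treatments was 2.03 to 3.20 for *Rny1*, 2.51 to 3.86 for *Rny3*, 1.06 to 1.35 for *Rn7sk*, 1.52 to 1.76 for *Rmrp*, 1.12 to 1.65 for *Rpph1* and 1.41 to 2.79 for *Terc*. The last of these includes the library with 1 *Terc* count.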
